A study of Mus musculus with 4 samples.

Results

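The B cell marker genes were followed in endothelial cells (ECs) isolated from mouse lungs 7 days after unilateral pneumonectomy (PNX) and from the lungs of sham-operated mice. The 9 genes, Ms4a1, Cd79a, Cd79b, Pax5, Blk, Cd22, Fcer2a, Cr2 and Bank1, were taken by symbol from a fixed list. Their measured values were not used for this, but the list was chosen with earlier results of these data known. All 9 were found among the 24063 gene symbols of the count tables. Mice of both groups were labelled as C57BL6 (C57BL6J in the methods), male and 8 weeks old. In post-PNX mice the left lung was removed, and in sham controls the chest was opened and the lung left in place. Ketamine with xylazine served for anaesthesia and meloxicam for pain relief. Lung cells of both groups were freed with collagenase, red blood cells were lysed, and CD31-positive cells were taken with antibody-coated magnetic beads over a pair of columns. Each group had 2 libraries, each pooled from 2 mice according to the methods. By that description the spread between libraries of a group is between pools.

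Per library, between 41367438 and 50952879 reads were counted with 1 transcript taken per symbol. For scale, 3 counts equalled 0.0589 to 0.0725 CPM (counts scaled to the library total). This level was not used as a filter, and some counts given below are smaller. The endothelial marker Pecam1, which encodes CD31, lay between 373 and 375 FPKM (fragments scaled to transcript length and library total) in the 4 libraries, and Ptprc, which encodes the pan-leukocyte protein CD45, lay between 28.1 and 28.6 FPKM. Ptprc RNA was thus present at 7.55% of the Pecam1 level in sham and 7.58% after PNX, although the methods describe the isolated cells as CD45-negative. Libraries of a group differed by more than counting noise, which would give a mean chi-square per gene near 1. The mean was 1.74 in sham and 1.51 after PNX. Whether this spread holds the variation between mice was not tested. In contrast to the label male, none of the 44 Y chromosome genes had a count in any library, and Xist had between 29890 and 36875 counts per library.

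B cells are the lymphocytes that make antibodies. Their surface antigen receptor consists of an immunoglobulin paired with the CD79A and CD79B chains, which carry the signal into the cell, and co-receptors such as CD21 and CD22 raise or lower the strength of that signal. PAX5 is the transcription factor that commits a lymphoid precursor to the B lineage and keeps it there. Lung holds B cells in its vessels and interstitium and, in inflammation, in lymphoid aggregates near the airways.

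The 9 B cell marker genes were lower in the CD31-positive fraction after PNX. In both post-PNX libraries every one of the 9 genes had fewer normalized counts than in either sham library, an arrangement seen in 40.5% of all genes tested. Summed over the 9 genes, the sham libraries had 8571 and 8524 normalized counts and the post-PNX libraries 5252 and 5188, so that the sum after PNX was 61.1% of that in sham. All 9 genes fell with an adjusted p under 0.01 (quasi-likelihood test of edgeR, Benjamini-Hochberg adjustment over all genes), while 27.8% of all genes tested fell by the same rule. None of the 9 passed the additional threshold of a log2 fold change beyond 1, which 1.66% of all genes tested passed in the lower direction. The median log2 fold change of the 9 genes was -0.80, in a range from -0.98 to -0.43, against a median of 0.00 over all 16208 genes tested. In these bulk samples, fewer B cells in the fraction and less RNA of these genes per B cell cannot be told apart.

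Levels of different genes can be compared only per transcript length, for which the deposited FPKM was used. Cd79a was highest with 16.4 and 16.6 FPKM in the sham libraries, followed by Cd79b with 14.5 and 14.1, Ms4a1 with 7.17 and 7.55, and Cd22 with 6.08 and 5.95. Fcer2a had 4.90 and 5.01, Blk 3.10 and 3.10, Bank1 2.93 and 2.64, Pax5 2.21 and 2.51, and Cr2 1.02 and 0.96. No neighbours in this order overlapped between the sham libraries. After PNX, Cd22 stood above Ms4a1, with 4.46 and 4.55 against 4.18 and 4.10 FPKM, and Bank1 and Blk overlapped. Set against the endothelial level, Cd79a reached 4.42% of Pecam1 in sham and 2.43% after PNX, and Ms4a1 1.97% and 1.11%. These levels rest on 1 transcript per gene, whose length, worked out from counts and FPKM, ran from 1198 bases for Cd79b to 6207 for Cr2.

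**Figure D1:**
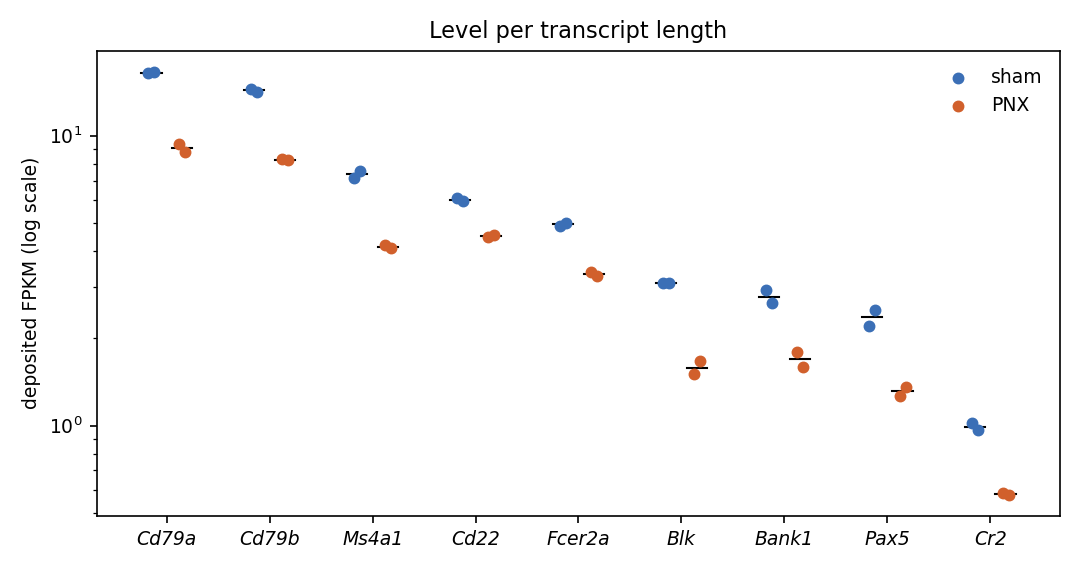
Deposited FPKM (log scale) of the 9 B cell marker genes, ordered by their sham mean. Points are single libraries (2 sham in blue, 2 post-PNX in orange) and bars are group means. Cd79a and Cd79b are highest and Cr2 is lowest in both groups, and Cd22 passes Ms4a1 after PNX.

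Among the signalling chains of the antigen receptor, Cd79a (RefSeq transcript NM_007655, on mm10 chromosome 7 from 24897497 to 24901858) had 1604 and 1621 normalized counts in the sham libraries and 909 and 856 after PNX. Cd79a thus had a log2 fold change of -0.87 (standard error, SE, 0.047, edgeR quasi-likelihood adjusted p = 9.9e-25), so that 54.8% of the sham level was left. Cd79b, the partner chain encoded on chromosome 11 from 106311341 to 106314562, had 1279 and 1247 normalized counts in sham and 726 and 724 after PNX. It fell by 0.80 on the log2 scale (SE 0.052, edgeR quasi-likelihood adjusted p = 2.7e-21). The chains form a dimer in the cell, and their 95% intervals of log2 fold change, -0.96 to -0.77 for Cd79a and -0.90 to -0.70 for Cd79b, overlapped.

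Blk, a Src family kinase that acts directly downstream of the receptor (chromosome 14, from 63372837 to 63417187), had the largest fall of the 9 genes, with a 95% interval (-1.14 to -0.82) that overlapped those of Cd79a, Cd79b, Ms4a1, Pax5, Cr2 and Bank1. It had 564 and 565 normalized counts in the sham libraries against 272 and 302 after PNX, a log2 fold change of -0.98 (SE 0.079, edgeR quasi-likelihood adjusted p = 4.0e-17). When the second post-PNX library was left out, Blk was the 1 member beyond the fold threshold, at -1.05. Bank1, a scaffold protein that binds Src family kinases in B cells (chromosome 3, from 136053363 to 136326141), had 700 and 632 normalized counts in sham and 425 and 379 after PNX, a log2 fold change of -0.73 (SE 0.072, edgeR quasi-likelihood adjusted p = 1.2e-13).

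Among the surface proteins, Ms4a1, which encodes CD20 (chromosome 19, from 11249679 to 11266149), had 1086 and 1143 normalized counts in the sham libraries and 629 and 617 after PNX. The log2 fold change was -0.84 (SE 0.055, edgeR quasi-likelihood adjusted p = 9.5e-21). Cr2, which in mice encodes the complement receptors CD21 and CD35 (chromosome 1, from 195136811 to 195176880), had 466 and 440 normalized counts in sham and 266 and 263 after PNX. It fell by 0.78 on the log2 scale (SE 0.084, edgeR quasi-likelihood adjusted p = 2.8e-12). Cr2 and Fcer2a are also used by follicular dendritic cells, whose further marker Madcam1 had 0 counts in 3 libraries and 2 counts in the other. Mfge8 of the same list, which many other cells use, had 10227 and 10462 normalized counts in sham and 10914 and 10913 after PNX. The part of these cells in the results was not tested.

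Fcer2a, which encodes CD23, the low affinity IgE receptor of follicular B cells (chromosome 8, from 3680280 to 3694174), had 808 and 827 normalized counts in sham and 553 and 537 after PNX. Its log2 fold change was -0.58 (SE 0.061, edgeR quasi-likelihood adjusted p = 9.2e-13). Cd22, an inhibitory lectin that binds sialic acid and dampens the antigen receptor (chromosome 7, from 30865404 to 30880342), showed the smallest fall. It had 1866 and 1827 normalized counts in the sham libraries and 1359 and 1389 after PNX, a log2 fold change of -0.43 (SE 0.041, edgeR quasi-likelihood adjusted p = 4.7e-14). The 95% interval of Cd22, -0.51 to -0.34, did not overlap those of Cd79a, Cd79b, Ms4a1, Blk, Cr2, Bank1 and Pax5, and overlapped that of Fcer2a, -0.70 to -0.46. The difference between genes itself was not tested.

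Pax5, the transcription factor (chromosome 4, from 44524748 to 44710694), was the member with the fewest counts, with 197 and 223 normalized counts in sham and 112 and 120 after PNX. Its log2 fold change of -0.85 (SE 0.13, edgeR quasi-likelihood adjusted p = 2.3e-08) had the widest 95% interval, from -1.10 to -0.60. Exons of Pax5 and Cd22 overlap annotated genes on the opposite strand, 5730488B01Rik and Gm12462 for Pax5 and Gm29439 for Cd22. The libraries were made with a stranded kit, but whether the counting used the strand is not given in the sources used here.

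**Figure D2:**
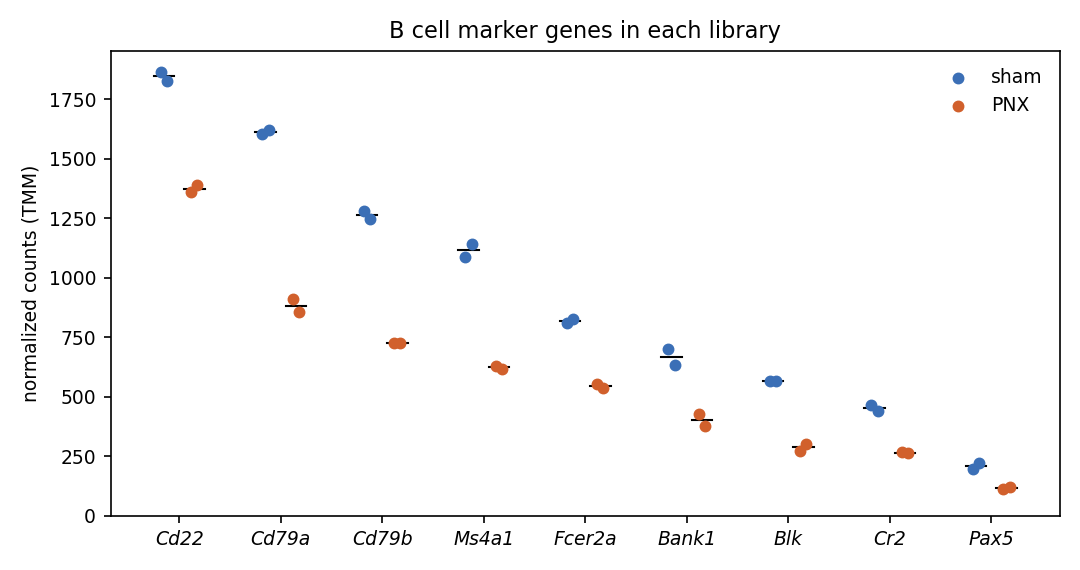
Normalized counts (TMM, linear axis from 0) of each B cell marker gene in each library, ordered by the sham mean. Points are single libraries (sham in blue, post-PNX in orange) and bars are group means. For every gene both post-PNX points lie below both sham points, from Cd22 (1866 and 1827 against 1359 and 1389) to Pax5 (197 and 223 against 112 and 120).

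**Figure D3:**
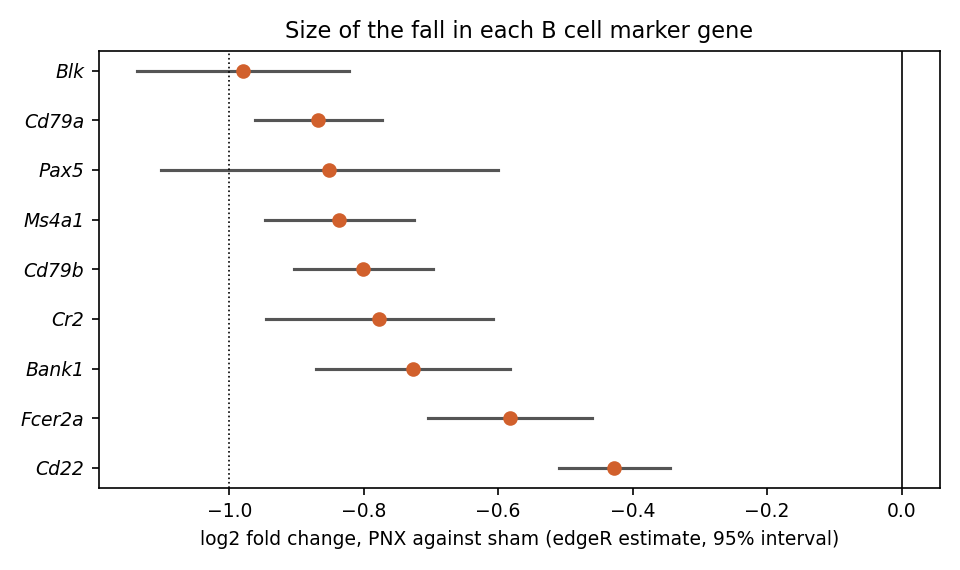
Log2 fold change of each B cell marker gene after PNX against sham, from edgeR, with its 95% interval as a line. The dotted line marks a log2 fold change of -1. Estimates run from -0.98 for Blk to -0.43 for Cd22, and every interval lies below 0.

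Relative to sham, what was left after PNX ran from 50.7% for Blk (95% interval 45.5% to 56.6%) to 74.4% for Cd22 (70.2% to 78.7%). For the other receptor components and kinase partners, 54.8% of Cd79a (51.3% to 58.5%), 57.4% of Cd79b (53.4% to 61.7%) and 60.4% of Bank1 (54.7% to 66.8%) was left. For the surface proteins it was 56.0% of Ms4a1 (51.9% to 60.5%), 58.4% of Cr2 (51.9% to 65.6%) and 66.8% of Fcer2a (61.4% to 72.7%), and for Pax5 55.4% (46.6% to 66.0%). Another scaling of the libraries moves all genes by the same amount, so the log2 fold changes of Blk and Cd22 were -0.73 and -0.17 when scaled to endothelial markers and -1.15 and -0.60 when scaled to pan-leukocyte markers. Under the latter scaling Blk, Ms4a1, Cd79a and Pax5 passed the fold threshold, the last 3 at -1.01, -1.04 and -1.02. Cd22 and Fcer2a are listed with 4 and 7 transcripts, whose counts over the libraries lay close together, from 6237 to 6482 and from 2651 to 2748. With transcripts summed, their log2 fold changes were -0.43 and -0.58, as with the 1 transcript used.

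The estimates of how much was left differed between genes, and so the shares of some genes in the counts differed between groups. These differences were not tested. Cd22 made up 21.8% and 21.4% of the counts on the 9 genes in the sham libraries and 25.9% and 26.8% after PNX. Fcer2a went from 9.43% and 9.70% to 10.5% and 10.4%. The share of Blk went from 6.58% and 6.63% down to 5.18% and 5.82%, and that of Cd79a from 18.7% and 19.0% to 17.3% and 16.5%. The groups overlapped in the shares of Pax5 (2.29% and 2.62% in sham, 2.13% and 2.32% after PNX) and Bank1 (8.17% and 7.41%, 8.10% and 7.30%). Per 100 counts of Ptprc, the 9 genes together had 73.9 counts in each sham library and 46.0 and 44.5 after PNX. Cd79a had 13.8 and 14.1 counts per 100 Ptprc counts in sham and 7.96 and 7.34 after PNX. Per 100 counts of the T cell gene Cd3e, the 9 genes had 4224 and 4202 counts in sham and 3471 and 5061 after PNX. The groups overlapped in this ratio, which rests on few Cd3e counts, 224 and 199 in sham and 154 and 92 after PNX. It does not show whether the 9 genes changed relative to T cell genes.

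**Figure D4:**
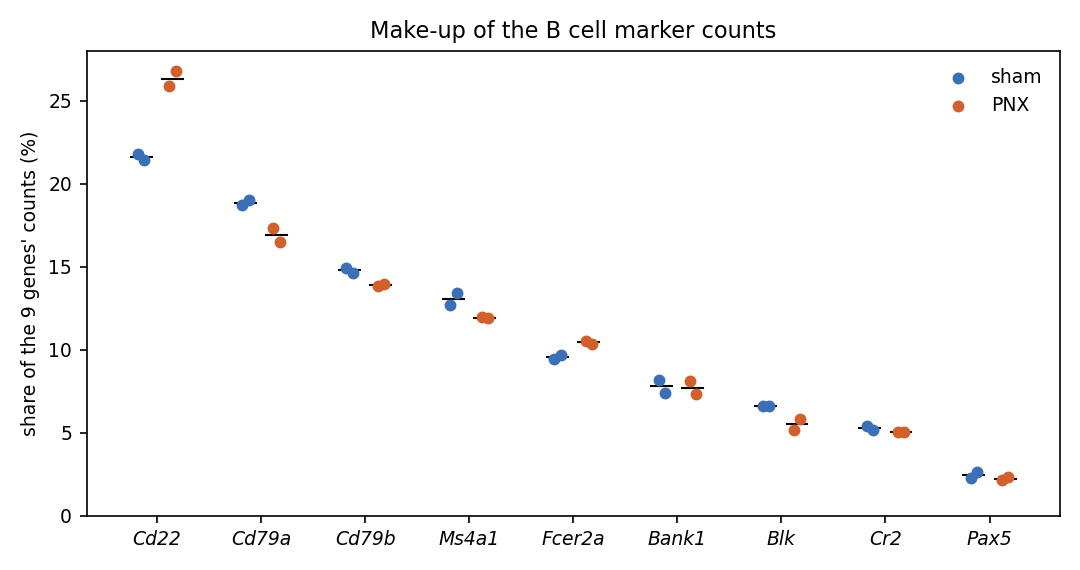
Share (%) of each gene in the counts summed over the 9 B cell marker genes, per library. Points are single libraries (sham in blue, post-PNX in orange) and bars are group means. Cd22 takes a larger share after PNX (25.9% and 26.8%) than in sham (21.8% and 21.4%), while the shares of Blk and Cd79a are smaller.

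Promoters of members that moved together were searched for letters bound by factors of the B lineage. RefSeq promoters of GRCm38.p6, from 250 bases before to 50 after a start, were listed for 6 of the 9 genes (Cd79a, Pax5, Cd22, Fcer2a, Cr2 and Bank1), 8 promoters in all. On either strand, the octamer ATTTGCAT was in none of the 8 and in 1.74% of all 32851 promoters. The EBF motif, a TCCC and GGGA palindrome with any pair of bases between, was in 1 of the 8 and in 0.904% of all promoters, and the core GAGGAA of PU.1 sites was in 1 of the 8 and in 28.3% of all. The 2 promoters with a match are shown, chosen after the matches were seen, over the stretch before the start that no GENCODE exon covers. Capitals mark the match, which lies 140 to 135 bases before the start of Cd79a (GAGGAA read on the other strand) and 49 to 40 bases before a start of Cd22. Cd79a is at chr7:24897247-24897380 on the plus strand and Cd22 at chr7:30879029-30879176 on the minus strand. A match describes letters, not binding. Only exact matches were counted, so a promoter without a match may still hold a site with other letters.
Cd79a: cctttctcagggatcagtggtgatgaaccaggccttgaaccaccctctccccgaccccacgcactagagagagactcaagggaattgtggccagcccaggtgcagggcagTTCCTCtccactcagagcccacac
Cd22: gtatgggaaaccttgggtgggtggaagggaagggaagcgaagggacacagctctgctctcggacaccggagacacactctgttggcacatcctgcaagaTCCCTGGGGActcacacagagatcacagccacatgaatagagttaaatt

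Other genes of the B lineage, and 12 ligands of B cell survival and attraction, whichever cells make them, were taken from lists by role. These were 96 genes in all, of which 83 were tested. Among these 40 (48.2%) fell and 23 (27.7%) rose by the same rule, against 27.8% and 29.3% of all genes tested, with a median log2 fold change of -0.14. Beyond the fold threshold 4 were lower and 6 higher, against 1.66% and 5.9% of all genes tested. Of the 6 higher, 3 were ligands. Libraries were also scaled to 12 endothelial markers in place of TMM (trimmed mean of M values). This moved the median of all genes by 0.25 on the log2 scale. In the lists 23 then fell and 37 rose, with a median of 0.11. Of all 16208 genes tested, 1447 fell and 9489 rose under this scaling. Scaled to 8 pan-leukocyte markers, which moved the median of all genes by -0.17, 48 fell and 14 rose. Of all 16208 genes tested, 7777 fell and 2570 rose under that scaling. The 9 B cell marker genes fell under both scalings, with medians of -0.55 and -0.97.

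Of the 16 B cell surface receptors 10 fell and 2 rose, against 27.8% and 29.3% of all genes tested, with a median log2 fold change of -0.70. H2-Ob, which tunes antigen presentation in B cells, had 1684 and 1620 normalized counts in sham and 978 and 891 after PNX, and fell by 0.82 on the log2 scale. Cd37, a tetraspanin used by many leukocytes, had a log2 fold change of -0.15, which turned to 0.10 under endothelial scaling. The inhibitory Fc receptor Fcgr2b, which macrophages also use, went the other way. It had 1901 and 1874 normalized counts in sham and 4322 and 4351 after PNX, a log2 fold change of 1.20, and Cd40, the receptor for T cell help that is also found on macrophages and ECs, rose by 0.49.

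Among 12 transcription factors of the lineage 8 fell and 2 rose, against 27.8% and 29.3% of all genes tested. Their median log2 fold change was -0.28, and -0.02 under endothelial scaling. Of those with most counts, Irf8 had a log2 fold change of 0.02 without passing the test (0.27 and past it under endothelial scaling), Ikzf1 of -0.24 (0.01 under endothelial scaling), Bach2 of -0.31 (-0.058 and no call under endothelial scaling), and Spi1, the PU.1 factor of myeloid and B cells, rose by 0.44. The factors Spib, Ikzf3 and Pou2af1, named after their values were seen, fell, with log2 fold changes of -0.96, -0.87 and -0.80. Genes of receptor signalling, most of which other leukocytes share, had 5 of 16 lower, 6 higher and a median of 0.06. Their direction depended on the scaling. Endothelial scaling gave 1 lower and 11 higher (median 0.32), and pan-leukocyte scaling 8 lower and 0 higher (median -0.11). Over all genes tested, the medians under these scalings were 0.25 and -0.17. Lyn, a Src family kinase, had a log2 fold change of 0.15, the kinase Syk 0.06 without passing the test (0.31 and past it under endothelial scaling), the phosphatase Ptpn6 0.12 and the lipid phosphatase Inpp5d -0.22. The signs of Lyn and Ptpn6 turned under pan-leukocyte scaling (-0.028 and -0.056), and that of Inpp5d under endothelial scaling (0.036).

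All 8 trafficking receptors fell under TMM, against 27.8% of all genes tested, with a median of -0.52. All 8 also fell under pan-leukocyte scaling (median -0.70), and 5 of 8 under endothelial scaling (median -0.27). Ccr7, which guides lymphocytes and dendritic cells into lymphoid tissue, had 2389 and 2341 normalized counts in sham and 951 and 927 after PNX, a log2 fold change of -1.33 (edgeR quasi-likelihood adjusted p = 1.7e-36). Cxcr5, the receptor that leads B cells into follicles, had 711 and 658 in sham and 326 and 359 after PNX, a log2 fold change of -1.01 (edgeR quasi-likelihood adjusted p = 5.4e-19). S1pr1, a sphingosine phosphate receptor that ECs express at high level, fell by 0.72 and Itga4 by 0.46. Cxcr4 had a log2 fold change of -0.22, which was 0.04 under endothelial scaling.

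In contrast, Cxcl13, which encodes the ligand of CXCR5, had 107 and 102 normalized counts in sham and 859 and 821 after PNX. Its log2 fold change was 3.01 (SE 0.089, edgeR quasi-likelihood adjusted p = 3.5e-38). The post-PNX libraries were thus higher in the ligand and lower in the receptor of this pair. Of the 10 ligands tested among 12, 4 fell and 3 rose (1 and 5 under endothelial scaling). Of all 16208 genes tested, 27.8% fell and 29.3% rose, and 1447 fell and 9489 rose under endothelial scaling. Il6, a cytokine with broad actions that include plasma cell support, went from 379 and 364 to 849 and 769 normalized counts (log2 fold change 1.13), and Il5 from 42.6 and 32.6 to 67.8 and 91.4 (1.06). Flt3l, a growth factor of lymphoid and dendritic precursors, had a log2 fold change of -0.27 that passed the test, and -0.019 without a call under endothelial scaling. Cxcl12 and Tnfsf13 (the cytokine APRIL) had log2 fold changes of -0.22 and -0.15, which turned to 0.03 and 0.11 under endothelial scaling, and Tnfsf13b (the survival factor BAFF) had -0.17 with an edgeR quasi-likelihood adjusted p of 0.0103, just outside the threshold. Tnfsf13b passed with the replicate number as a block (edgeR quasi-likelihood adjusted p = 0.0084), under pan-leukocyte scaling (-0.34), with DESeq2 size factors, with no filter, and without the second sham (-0.21) or the first post-PNX library (-0.23).

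Genes of plasma cells, the antibody-secreting progeny of B cells, were mixed. Jchain, listed under its older symbol Igj, encodes the chain that joins secreted IgM and IgA, and had 69.8 and 45.9 normalized counts in sham and 673 and 711 after PNX, a log2 fold change of 3.56 (SE 0.11, edgeR quasi-likelihood adjusted p = 6.1e-37). Tnfrsf17, which encodes the plasma cell receptor BCMA, had 3, 1, 0 and 1 counts in the 4 libraries. Sdc1 and Prdm1 had log2 fold changes of -0.03 and 0.02 without passing the test, and passed under pan-leukocyte scaling (Sdc1, -0.20) and endothelial scaling (Prdm1, 0.27). The other tested genes of the list were Derl3 and Fkbp11, which rose by 0.94 and 0.74, and Mzb1, with -0.16 and no call. Derl3 did not pass in DESeq2. Slamf7 had 0.34, which passed the test except under pan-leukocyte scaling (0.16), and Xbp1, a factor of the secretory pathway used in many cells, had -0.11 (0.14 under endothelial scaling). In all, 4 of 8 tested genes of this list rose and 1 fell, against 29.3% and 27.8% of all genes tested. Under endothelial scaling 7 rose and 0 fell, and under pan-leukocyte scaling 3 rose and 3 fell. Of all 16208 genes tested, 9489 and 2570 rose under these scalings. None of its 6 immunoglobulin constant region genes was among the symbols of the tables.

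Of 5 germinal centre genes 3 had enough counts for a test. Rgs13 had between 0 and 4 counts per library and was not tested. Mybl1 rose by 1.29, S1pr2 by 0.35, and Gcsam had a log2 fold change of 0.05 without passing the test. Of the precursor genes, Rag1, part of the recombinase that assembles antigen receptor genes in B and T cell precursors, had 48.0 and 38.7 normalized counts in sham and 8.84 and 5.57 after PNX, a log2 fold change of -2.56 (SE 0.36, edgeR quasi-likelihood adjusted p = 6.7e-09). Vpreb3 fell by 1.05. Dntt had a log2 fold change of -0.97 that passed the test, but not under endothelial scaling (-0.72), in DESeq2, or with any 1 library left out (-1.09 to -0.83). Vpreb1 had -0.58 without passing the test. Rag2 and Igll1 had at most 2 counts in any library.

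Of the genes used by B-1 and marginal zone B cells 4 of 6 rose and 1 fell, against 29.3% and 27.8% of all genes tested. Under pan-leukocyte scaling 2 rose and 2 fell. Myof, S1pr3 and Bhlhe41, which are used by many other cells as well, had log2 fold changes of 0.25, 0.26 and 0.18 that passed the test. Under pan-leukocyte scaling S1pr3 (0.083) and Bhlhe41 (0.0067) did not pass, and Bhlhe41 also did not pass in DESeq2, without the first sham library (0.17) or without the second post-PNX library (0.16). Cd1d1 had -0.14 without passing the test, and passed under pan-leukocyte scaling (-0.31). The remaining genes of the list were Cd5, a T cell gene that also marks B-1a cells, which fell by 0.88, and Zbtb32, which rose by 0.77.

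Markers of other blood cells moved in their own ways, and their part in the fall of the B cell markers was not tested. All 10 T cell markers fell, against 27.8% of all genes tested, with a median log2 fold change of -0.82. Their summed normalized counts were 4751 to 4752 in sham and 3109 to 3138 after PNX. Cd3e had a log2 fold change of -0.66 and Cd3d of -0.86. Under endothelial scaling 9 of the 10 fell (median -0.57), and 9 also with library size alone (median -0.82). Of the 8 pan-leukocyte markers 5 rose and 1 fell, against 29.3% and 27.8% of all genes tested. Their median was 0.18, with sums of 68316 to 68728 in sham and 76648 to 77384 after PNX. Ptprc among them had a log2 fold change of 0.00 without passing the test and Coro1a of -0.14 (0.12 under endothelial scaling). The 7 macrophage markers all rose, against 29.3% of all genes tested, with a median of 1.22. Their sums were 22004 to 22337 in sham and 51714 to 51914 after PNX. C1qa had a log2 fold change of 2.82 and C1qb of 2.98. In the NK cell list 1 of 6 genes fell and none rose (median -0.15, or 0.10 with no call under endothelial scaling), with -0.32 for Ncr1 and -0.07 for Klrb1c, neither passing the test. Under pan-leukocyte scaling 4 of the 6 fell (median -0.33), Ncr1 among them (-0.49).

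Among 6 dendritic cell markers 4 fell, against 27.8% of all genes tested, with a median of -0.26. Under endothelial scaling 2 fell and 1 rose (median -0.01). Flt3 and Xcr1 had log2 fold changes of 0.01 and 0.09 without passing the test, and Flt3 passed under endothelial scaling (0.26). Siglech and Ccr9, which mark plasmacytoid dendritic cells, were named after their values were seen and had log2 fold changes of -1.25 and -1.16, both past the test. All 5 neutrophil markers tested rose, against 29.3% of all genes tested (median 0.16, or -0.01 under pan-leukocyte scaling). S100a8 and S100a9 rose by 0.15 and 0.16, and both turned to -0.02 under pan-leukocyte scaling. Mfge8, the 1 follicular dendritic cell marker tested, had a log2 fold change of 0.08 (-0.10 under pan-leukocyte scaling). Of 12 endothelial markers 10 fell and 1 rose, against 27.8% and 29.3% of all genes tested. Their median was -0.25, and 0.01 when scaled to themselves. Among them Pecam1 had -0.01 without passing the test, and Cdh5, which encodes VE-cadherin, had -0.22 (0.03 under endothelial scaling).

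**Figure D5:**
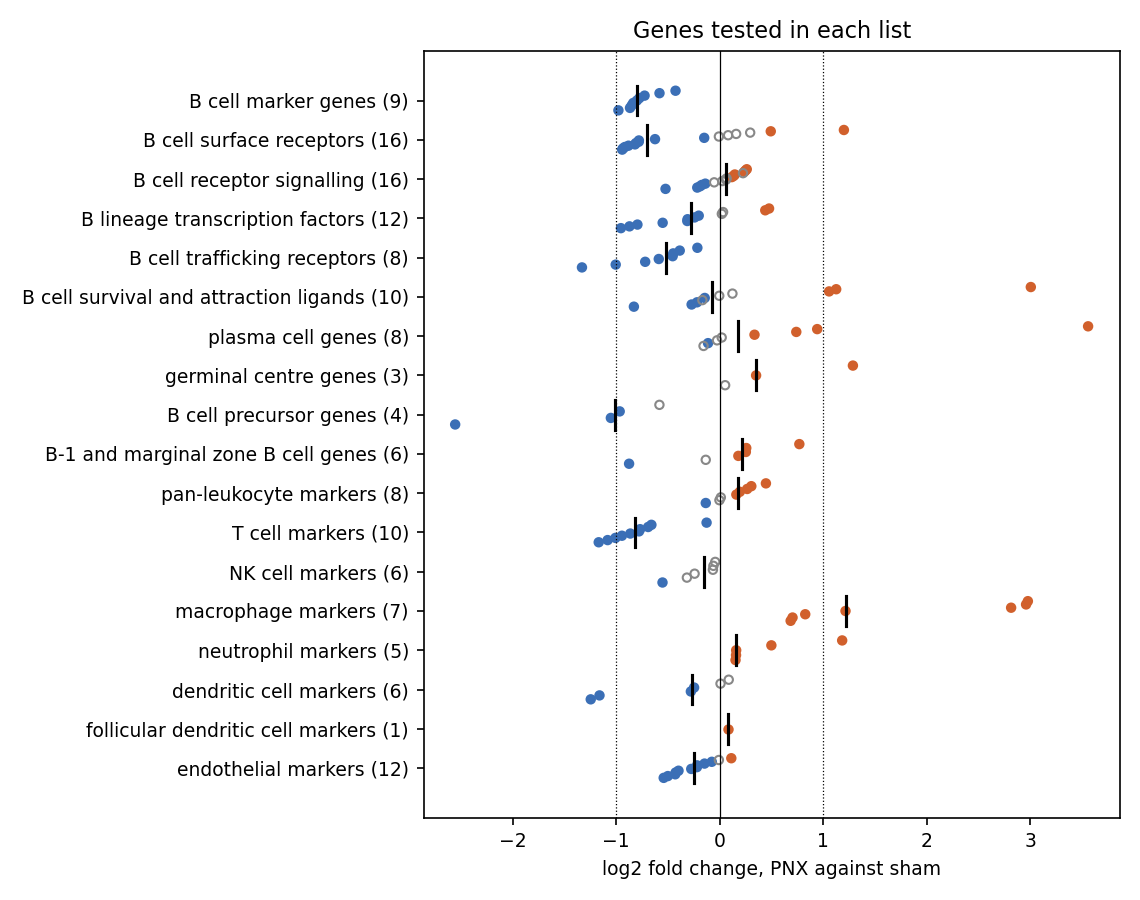
Log2 fold change after PNX against sham of every gene tested in each list, with the number tested in brackets. Filled points passed an adjusted p of 0.01 in edgeR's test (blue lower, orange higher), open points did not, black bars are list medians and dotted lines mark -1 and 1. The B cell marker genes lie between -0.98 and -0.43, near the T cell markers (median -0.82), while the macrophage markers lie to the right of 0 (median 1.22).

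Genes outside these lists whose profile over the 4 libraries was most like the mean of the 9 genes were sought among 13264 genes with at least 100 mean normalized counts. Likeness was the root mean square distance between centred log2 CPM values. The nearest were E030019B13Rik (distance 0.0079), Fzd4 (0.0090), Scgb3a2 (0.0098), Lifr (0.011) and Tmcc3 (0.012), with log2 fold changes of -0.77, -0.77, -0.75, -0.74 and -0.78. The members themselves lay at distances from 0.024 for Cd79b to 0.17 for Cd22. With 4 libraries in 2 groups, this distance is set mainly by the size of the difference between groups.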

How the data were processed

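The 9 genes, the gene lists and the tests were chosen with earlier results of these data known. RNA was prepared as stranded mRNA libraries and sequenced as paired ends. The authors deposited, per library, read counts without normalization on 33068 RefSeq transcripts of mm10, with FPKM and TPM values made by the authors from these counts. STAR is named in the submitters' processing notes. The counting program is not given in the sources used here. Counts of the transcripts of Cd22 and of Fcer2a were close to each other, as when shared reads count for each of them, so the transcript with most counts over the 4 libraries stood for each symbol. FPKM served for levels, and TPM was not used.

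Counts were tested in R 4.3.3 with edgeR 4.0.16 (filterByExpr, TMM, quasi-likelihood F test, no covariates) on 16208 genes. The standard error is the log2 fold change divided by the square root of F, with Benjamini-Hochberg adjustment of p over the genes tested. A gene rose or fell with an adjusted p under 0.01, and passed the fold threshold with a log2 fold change beyond 1 as well. Normalized counts are scaled to the mean library size, and log2 CPM used a prior count of 0.125. Intervals (95%) rest on edgeR's error, floors on counting error only. Gene symbols absent from the tables were matched by RefSeq synonym where possible (Fcmr, Jchain and Adgre1), after the tables were seen.

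Named genes were all members, in each lineage list those beyond the fold threshold and the 4 others with most counts, in other lists the first 2, the sort markers, and the 5 nearest profiles. Promoters with at least 2 of 3 motifs were to be printed, and none had them. The test was checked on simulated counts for 16208 genes, of which 200 were changed 4-fold up or down. With the fold threshold applied as well, 200 of 200 were recovered and 0 others called. Smaller changes, such as those of the members, and calls without the fold threshold were not checked in this way. Alternatives were other scalings, filters and tests (DESeq2 1.42.0, glmTreat), a replicate block, summed transcripts and each library left out. Some genes of the lists are not reported here by name.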

Additional observations from a re-analysis of the deposited data

How the results depend on the processing

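Each of the 9 B cell marker genes kept its direction and an adjusted p under 0.01 (edgeR or DESeq2) under all 13 alternatives that give a fold change per gene, with a highest adjusted p of 0.00029, for Cd22 under endothelial scaling. The median log2 fold change of the 9 genes was -0.55 under endothelial scaling and -0.97 under pan-leukocyte scaling, and -0.80 to -0.78 without single libraries. Under pan-leukocyte scaling 4 of the 9 were beyond the fold threshold, and 0 to 1 without single libraries (Blk, without the second PNX library). In the lineage lists, endothelial scaling gave 23 lower, 37 higher and 2 lower beyond the fold threshold, pan-leukocyte scaling 14 higher and 13 lower beyond it, and a test against a log2 fold change of 1 (glmTreat) 2 lower and 3 higher beyond it. Over all genes, endothelial scaling gave 1447 lower, 9489 higher and 90 lower beyond the threshold, pan-leukocyte scaling 7777, 2570 and 502, glmTreat 39 lower and 604 higher beyond it, and a mean of at least 50 counts 160 lower beyond it. Under endothelial scaling, log2 fold changes turned sign and passed the test for Tnfsf13 (0.11), Xbp1 (0.14) and Coro1a (0.12). They turned without passing for Cd37 (0.10), Inpp5d (0.036), Ikzf1 (0.010), Cxcr4 (0.037), Cxcl12 (0.034) and Cdh5 (0.033). Under pan-leukocyte scaling, Mfge8 (-0.10) turned sign and passed. Lyn (-0.028), Ptpn6 (-0.056), S100a8 (-0.021) and S100a9 (-0.016) turned there without passing. Each scaling shifts all genes alike. Libraries of the same number in both groups did not deviate together (r = 0.023 over 14298 genes), and with the replicate number as a block 9 members and 41 genes of the lineage lists fell, with a median of -0.80 for the members. Of the named genes, the block changed the call of Tnfsf13b alone, which then passed. Dntt did not pass with any 1 library left out. Of genes with small differences, Cd37 (-0.16 to -0.13), Ptpn6 (0.075 to 0.10), S100a8 (0.11 to 0.12) and Mfge8 (0.061 to 0.079) did not pass without certain single libraries or in DESeq2. With 2 libraries per group, errors borrow from all genes, and a left-out library leaves 1 that is assumed to vary like the other group.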
